A study of Mus musculus with 12 samples.

Results

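A group of 4 genes of ubiquitin and SUMO conjugation was followed in oocytes of aged mice set against oocytes of young mice: Ube2e3, Ube2d3 and Ube2g1, which encode ubiquitin-conjugating enzymes, and Sumo2, which encodes a small ubiquitin-like modifier. They were found through the gene symbols of the platform annotation, which gave 7 probes that name 1 of the 4 genes alone and 2 probes that name one of them beside another gene, of 22575 probes in all. Genes called named or measured below are the 3089 that at least 1 probe names alone. Genes found only on probes that name several genes are not among them. The genes were chosen from the aged over young ratio in these same arrays, by smallest p within their group. Their ratios are therefore given as a description with no test. Just inside that choice lay Ube2g1, at a log2 ratio of -0.32 ± 0.19 (SD, n = 3), and the next conjugating enzyme by p was Ube2n, at -0.33 ± 0.32 (SD, n = 3).

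Each of the 12 arrays was a 2-colour hybridisation, with RNA of aged oocytes in one dye and RNA of young oocytes in the other. Pair 1 joined aged RNA 1 and young RNA 1, pair 2 joined aged RNA 2 and young RNA 5, and pair 3 joined aged RNA 3 and young RNA 2. A pair filled 4 arrays, made from 2 labellings with the dyes in both orientations, and these 4 arrays count as 1 replicate. The labels say only probe1 and probe2, and reading these as labelling 1 and labelling 2 is an inference. The labels used here give neither the ages, strain nor stage of the oocytes, nor how many animals stand behind an RNA, so the spread between pairs may be partly technical. A value below is the log2 of aged over young, set against the median probe of its array. The signs rest on reading the deposited numbers as Cy5 over Cy3, which is likely by convention but stated in no source used here, and every sign turns round under the opposite convention. Spot brightness was not analysed here, so neither the level of a gene nor its signal over background is known. A change shared by all probes is removed with the array median, so the values show neither RNA per oocyte nor oocyte number. A lower ratio within oocytes cannot be told apart from a smaller part of oocyte RNA in the sample.

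Ubiquitin is attached to proteins by a relay. An activating enzyme (E1) charges it, a conjugating enzyme (E2) carries it, and a ligase (E3) chooses the substrate; SUMO and other ubiquitin-like modifiers travel along relays of their own. In oocytes the destruction of ubiquitinated cyclin B and securin lets the meiotic divisions proceed. Ube2d3 belongs to a family of E2 enzymes that work with many ligases. Ube2e3 is a related E2 with an extended amino-terminal part, and Ube2g1 is an E2 that builds degradation-linked ubiquitin chains. Sumo2 is a modifier that can be joined into SUMO chains.

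RefSeq promoters of build GRCm38.p6 were held for 3 of the 4 genes, and the 250 bases before the start are shown for these as the start regions of the genes described. Ube2e3 is named only. The windows are chr11:115536231-115536480 on the minus strand, chr11:72607011-72607260 on the plus strand, and chr3:135437982-135438231 on the plus strand, the last being the most upstream of 4 annotated starts. Each is written 5′ to 3′ along its gene, and capitals mark CCAAT and GGGCGG or their reverse complements.
Sumo2: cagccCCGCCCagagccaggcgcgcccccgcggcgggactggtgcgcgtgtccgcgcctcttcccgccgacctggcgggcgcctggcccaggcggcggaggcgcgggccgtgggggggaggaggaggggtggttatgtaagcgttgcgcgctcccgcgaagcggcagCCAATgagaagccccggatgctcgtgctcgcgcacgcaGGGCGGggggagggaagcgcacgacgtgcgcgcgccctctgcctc
Ube2g1: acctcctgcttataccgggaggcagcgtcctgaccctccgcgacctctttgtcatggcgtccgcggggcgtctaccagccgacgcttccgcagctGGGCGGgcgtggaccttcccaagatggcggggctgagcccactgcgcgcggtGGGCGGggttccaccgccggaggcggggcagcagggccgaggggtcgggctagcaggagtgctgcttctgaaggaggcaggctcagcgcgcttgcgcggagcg
Ube2d3: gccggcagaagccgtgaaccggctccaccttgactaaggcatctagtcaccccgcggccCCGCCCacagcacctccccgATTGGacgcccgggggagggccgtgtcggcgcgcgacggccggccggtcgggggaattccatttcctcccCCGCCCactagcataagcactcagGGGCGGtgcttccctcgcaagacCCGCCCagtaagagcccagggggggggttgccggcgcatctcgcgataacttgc

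All 3 windows were rich in G and C, at 77.2% for Sumo2, 71.6% for Ube2g1 and 69.6% for Ube2d3, against a median of 52.4% over the 32851 promoters of the table. They held 37, 28 and 26 CpG dinucleotides in the same order, against a median of 6. GGGCGG occurred 2 times in Sumo2, 2 times in Ube2g1 and 4 times in Ube2d3, searched on both strands, and 32.7% of all promoters hold it. CCAAT occurred once in Sumo2 and once in Ube2d3, beginning 83 and 171 bases before the start, and had no match in the Ube2g1 window, while 33.8% of all promoters hold it. CGGAAG was found once, in Ube2g1, and is held by 13.6% of promoters. No marked match overlapped another, and a match is a description of the letters only.

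Ube2e3, measured by 1 probe (probe 1111), was lower in aged than in young oocytes on every array. In pair 1 its log2 ratios were -0.45 and -0.27 with aged RNA in Cy5 (labellings 1 and 2) and -0.84 and -2.02 with aged RNA in Cy3. In pair 2 they were -0.60 and -0.48 with aged RNA in Cy5, and -0.52 and -0.84 with aged RNA in Cy3. In pair 3 they were -0.45 and -0.46, and -0.51 and -0.55, in the same order. The 4 arrays of pair 3 thus differed little (SD 0.05), those of pair 2 somewhat more (SD 0.16), and those of pair 1 most (SD 0.79), through the array at -2.02. On that array, the one of labelling 2 with aged RNA in Cy3, the probes as a whole scattered more than on any other (SD 1.23). The pair values were -0.90, -0.61 and -0.49, which gives -0.67 ± 0.21 (SD, n = 3), or 0.630-fold aged over young. Without the widest array the mean was -0.57.

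The deposited numbers of this probe changed sign with the dyes. Before any centring or turning they were below 0 on 6 of 6 arrays with aged RNA in Cy5 and above 0 on 6 of 6 with aged RNA in Cy3. The Sumo2 probe and probe 10619 of Ube2g1 did the same, so 3 of the 7 probes changed the sign of their deposited value with the orientation on all 12 arrays. Read as Cy5 over Cy3 this puts the aged RNA lower each time, and read as already aged over young it is a difference between the dyes. Among the 21569 probes with a value on every array, 1.54% did so in that direction. After centring, 2 of the 7 probes, those of Ube2e3 and probe 10619, were below 0 on all 12 arrays, against 0.862% of all probes. The genes were chosen from this contrast, so nothing is read from these shares.

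Sumo2, also measured by 1 probe of its own (probe 3507), had the lowest mean of the 4 genes. In pair 1 its log2 ratios were 0.13 and -0.42 with aged RNA in Cy5 (labellings 1 and 2) and -2.13 and -3.37 with aged RNA in Cy3. In pair 2 they were -0.12 and -0.06 with aged RNA in Cy5, and -0.38 and -0.78 with aged RNA in Cy3. In pair 3 they were -0.50 and -0.36 with aged RNA in Cy5, and -1.31 and -1.27 with aged RNA in Cy3. Within each pair both arrays with aged RNA in Cy5 lay above both with it in Cy3, and 11 of 12 arrays were below 0. The pair values of -1.45, -0.33 and -0.86 gave -0.88 ± 0.56 (SD, n = 3), or 0.544-fold, and without the widest array the mean was -0.78. Of all 21370 rows, which are named genes and the probes that name several genes or none, 0.407% had a lower mean. The gene was chosen on this ratio, so nothing is read from that rank.

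A second probe, 5642, names Sumo2 together with Hic1, a zinc finger repressor gene on the same chromosome but far from it in RefSeq, with 693 protein-coding genes between. It ran from -2.18 to 0.57 over the 12 arrays with a median of -0.12, and 6 arrays lay on each side of 0. Its pair values of -0.63, -0.22 and -0.27 gave -0.37 ± 0.23 (SD, n = 3). Over the 12 arrays it correlated with the Sumo2 probe at r = 0.679. Averaging it in would move Sumo2 to -0.63.

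Ube2d3 was measured by 2 probes annotated with the same set of transcripts, and both means were below 0. Probe 8497 lay at -0.24 ± 0.01 (SD, n = 3), with pair values of -0.22, -0.24 and -0.25. That closeness hid a wide scatter between arrays of a pair: in pair 1 the log2 ratios were 1.59 and -0.18 with aged RNA in Cy5 and -1.06 and -1.23 with aged RNA in Cy3. Over all arrays this probe ran from -1.23 to 1.59, and 8 of 12 were below 0.

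The other Ube2d3 probe, 9504, lay at -0.46 ± 0.50 (SD, n = 3), with pair values of 0.04, -0.46 and -0.96. Pair 3 held both the lowest array, -3.24 (labelling 1, aged RNA in Cy3), and one at 0.52 (labelling 2, aged RNA in Cy3), beside -0.54 and -0.59 with aged RNA in Cy5. The 2 probes did not run in parallel over the 12 arrays (r = -0.0164). Their average put Ube2d3 at -0.35 ± 0.26 (SD, n = 3), with pair values of -0.09, -0.35 and -0.61.

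The 3 probes of Ube2g1 gave different answers. Probe 10619 was the lowest of all 9 probes in mean. In pair 1 its log2 ratios were -1.18 and -1.34 with aged RNA in Cy5 (labellings 1 and 2) and -2.41 and -3.02 with aged RNA in Cy3. In pair 2 they were -0.69 and -0.41 with aged RNA in Cy5, and -0.46 and -0.63 with aged RNA in Cy3. In pair 3 they were -1.45 and -1.44 with aged RNA in Cy5, and -2.31 and -1.43 with aged RNA in Cy3. Pairs 1 and 3 were thus lower on all their arrays than any array of pair 2. The mean was -1.40 ± 0.75 (SD, n = 3), or 0.380-fold aged over young.

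Probe 19618, annotated with the same transcripts as probe 10619, stood on the other side of 0. In pair 1 it had 3.14 and 2.57 with aged RNA in Cy5, and 0.59 and 0.83 with aged RNA in Cy3. All 8 arrays of pairs 2 and 3 lay between -0.35 and 0.59. Its pair values of 1.78, 0.17 and -0.09 gave 0.62 ± 1.01 (SD, n = 3), so most of its positive mean came from pair 1. The 2 probes had r = -0.0365 over the 12 arrays.

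The third probe of Ube2g1, 17119, is annotated with 1 of those transcripts and lay near 0, at -0.18 ± 0.28 (SD, n = 3), with a lowest array of -1.37, a median of -0.06 and a highest of 0.48. Probe 786 names Ube2g1 together with Ankfy1, its direct protein-coding neighbour in RefSeq, and lay at -0.10 ± 0.18 (SD, n = 3), with arrays from -0.56 to 0.24. The average of the 3 single-gene probes put Ube2g1 at -0.32 ± 0.19 (SD, n = 3), with pair values of -0.21, -0.20 and -0.54. That average combines probes of opposite sign and is the mean of none of them.

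**Figure D1:**
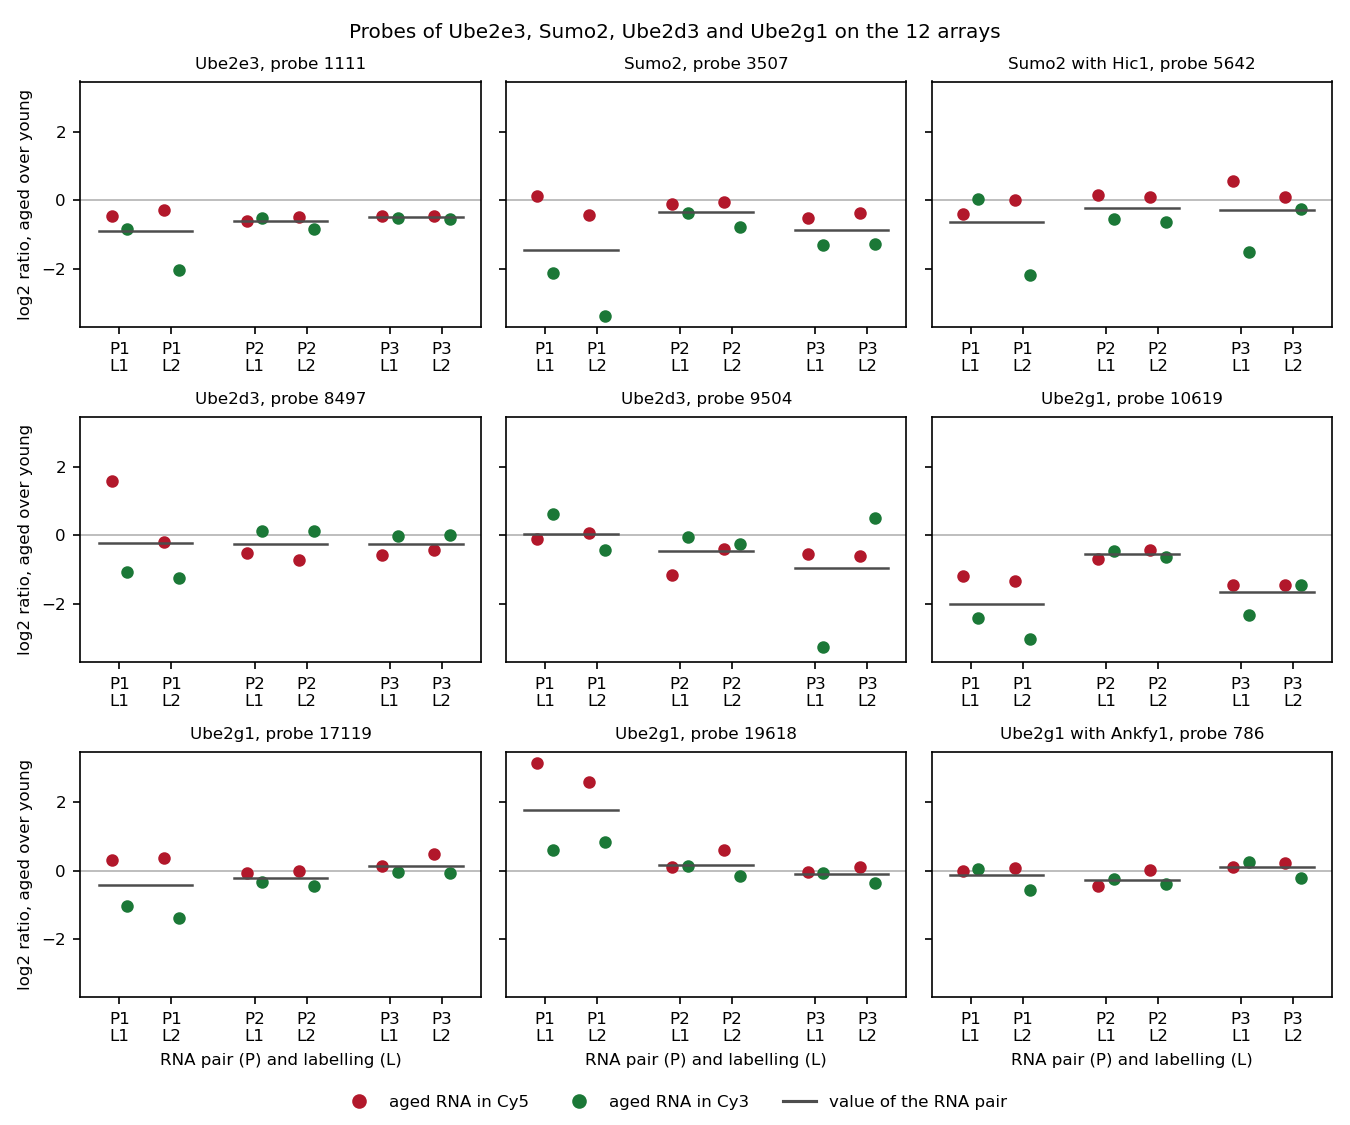
Log2 ratios of aged over young (vertical axis) of the 9 probes on each array, by RNA pair (P1 to P3) and labelling (L1, L2), with colour for the dye of the aged RNA and a line for the value of the pair. Every point of Ube2e3 and of Ube2g1 probe 10619 lies below 0, while Ube2g1 probe 19618 reaches 3.14 in pair 1.

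In order of mean the genes ran Sumo2, Ube2e3, Ube2d3 and Ube2g1, and the neighbours in that order differed by less than the larger of their SDs, except Ube2e3 and Ube2d3 (-0.67 ± 0.21 and -0.35 ± 0.26, SD, n = 3 each). Those 2 genes still overlapped in their pair values, since pair 3 of Ube2e3 lay at -0.49 and pair 3 of Ube2d3 at -0.61. Each gene was below 0 in all 3 pairs, as were 16.4% of named genes. In the fit across the whole table limma called 0 of 21370 rows at an adjusted p under 0.05 (0%), the 4 genes included, with 1400 rows (6.55%) at an unadjusted p under 0.05.

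Whether the ratio depended on the dye was tested in all 12 arrays, a contrast the choice of genes did not use. Were the deposited numbers already aged over young, this contrast would be the one between aged and young instead. The fit took the arrays of a pair as separate values. Its SEs, intervals and p-values thus measure the spread between arrays, not between RNA pairs. The turned ratio was higher with aged RNA in Cy5 than with aged RNA in Cy3 in all 9 probes, by 0.02 to 1.32. The share of all probes with a difference above 0 is not given, so nothing is read from this common direction. Without centring the differences of probes 786, 8497 and 9504 were below 0. So was that of 9504 with arrays scaled to one spread (-0.16) and without pair 3 (-0.37), and that of 8497 without pair 1. The Sumo2 probe averaged -0.22 ± 0.25 with aged RNA in Cy5 and -1.54 ± 1.07 with it in Cy3 (SD, 6 arrays each). That difference of 1.32 ± 0.34 (SE) passed in limma (adjusted p = 0.0236 over 21569 probes). Probe 17119 of Ube2g1 averaged 0.20 ± 0.22 with aged RNA in Cy5 and -0.55 ± 0.54 with it in Cy3 (SD, 6 arrays each), a difference of 0.75 ± 0.24 (SE) that also passed (limma, adjusted p = 0.0439).

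So 2 of the 7 single-gene probes were called, both higher with aged RNA in Cy5, where 10.3% of all probes were called in that direction and 20.8% in either. Ube2e3 differed by 0.43 with a 95% interval of -0.11 to 0.97 (limma, adjusted p = 0.217), and probe 10619 of Ube2g1 by 0.62 with an interval of 0.02 to 1.22 (limma, adjusted p = 0.116). Neither Ube2d3 probe passed, with differences of 0.21 and 0.02. The Sumo2 call held without centring (limma, adjusted p = 0.0296) and without pair 1 (0.67, adjusted p = 0.028), and was lost without pair 2 (1.73, adjusted p = 0.108) or without pair 3 (1.55, adjusted p = 0.111), settings under which no probe of the table passed. The call of probe 17119 was lost without centring (0.53, limma adjusted p = 0.151) and without any one pair (adjusted p = 0.0974, 0.137 and 0.133 without pairs 1, 2 and 3). Without pair 1 its difference was 0.36. Probe 8497 of Ube2d3 passed only without pair 1, in the other direction (-0.61, limma adjusted p = 0.0249).

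**Figure D2:**
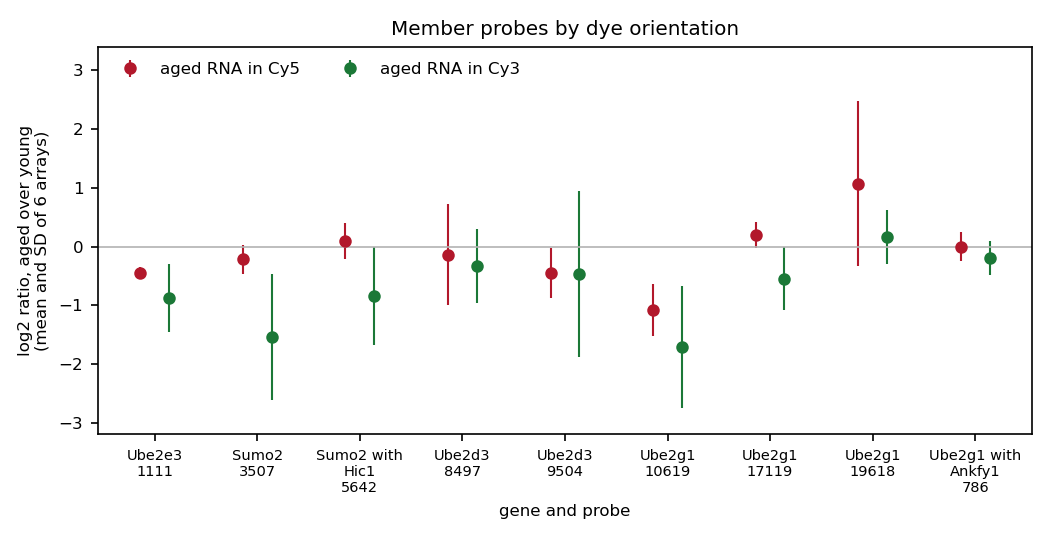
Mean log2 ratio of aged over young (vertical axis) of each probe, with bars for the SD of 6 arrays, for aged RNA in Cy5 (red) and aged RNA in Cy3 (green). The Sumo2 probe sits at -0.22 with aged RNA in Cy5 and at -1.54 with it in Cy3, and Ube2d3 probe 9504 at -0.45 and -0.47.

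The labelling made no called difference. Labelling 1 less labelling 2 came to 0.21 for Ube2e3 (95% interval -0.33 to 0.75), 0.33 for Sumo2 (-0.42 to 1.07), 0.33 and -0.57 for the Ube2d3 probes, and -0.04, 0.00 and 0.04 for the Ube2g1 probes. The limma fit called 0 of 21569 probes for labelling at an adjusted p under 0.05 (0%), with 292 at an unadjusted p under 0.05.

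Of 42 E2 enzymes on a list of the family, 13 had a probe of their own, 10 besides the 3 described. Of these 10 none passed in limma (lowest adjusted p = 0.716), and none had an unadjusted p under 0.05. Their median was -0.16, against 0.00 over named genes, with 7 of 10 below 0 (49.9% of named genes) and 4 of 10 below 0 in all 3 pairs. Ube2b, an E2 of DNA damage tolerance, lay at -0.16 ± 0.00, and Ube2n, which builds signalling chains, at -0.33 ± 0.32 (SD, n = 3 each). Ube2b is an average of 2 probes with means of -0.29 and -0.02, so its small SD over pairs does not measure precision. Ube2v2, the inactive partner of Ube2n, had a mean of 0.25 ± 0.32 (SD, n = 3), and the signs of this enzyme and its partner differed in pair 1 alone. Ube2e1, the close relative of Ube2e3, lay at 0.05 ± 0.12 (SD, n = 3), with pair values of 0.16, 0.08 and -0.07. Ube2e3 was chosen on its ratio, so nothing is read from its distance to Ube2e1.

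Among the other E2 enzymes, Ube2j2, which sits in the endoplasmic reticulum membrane, had -0.27 ± 0.27, and Ube2k, a chain-building E2, -0.17 ± 0.15 from 3 probes between -0.79 and 0.31 (SD, n = 3 pairs each). Ube2w, which modifies amino termini, had -0.17 ± 0.40, and Birc6, a giant inhibitor of apoptosis with an E2 domain, 0.04 ± 0.20 (SD, n = 3 each). The 3 probes of Birc6 had means between -0.20 and 0.41. Ube2f, an E2 of the modifier NEDD8, had -0.23 ± 0.18, and Ufc1, the E2 of UFM1, -0.10 ± 0.41 (SD, n = 3 each).

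Upstream in the relay, 2 of 11 activating enzyme genes were measured and neither passed. Uba3, the catalytic subunit of the NEDD8 activating enzyme, lay at -0.69 ± 0.36 (SD, n = 3), with pair values of -1.06, -0.67 and -0.35 and both its probes below 0, at -0.80 and -0.59 (limma, unadjusted p = 0.0103, adjusted p = 0.699). Its mean was close to that of Ube2e3. Uba6, an alternative activating enzyme for ubiquitin, lay at -0.10 ± 0.17 (SD, n = 3).

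Of 22 ubiquitin and ubiquitin-like modifier genes 4 were measured, Sumo2 among them. None of the 4 passed in limma, and none of the others had an unadjusted p under 0.05. Atg12, which is conjugated during autophagy, lay at -0.36 ± 0.42, Map1lc3b, the autophagosome modifier, at 0.09 ± 0.15, and Urm1, a sulfur carrier and modifier, at 0.14 ± 0.20 (SD, n = 3 each). Of 23 SUMO ligases and proteases 5 were measured, 4 of them below 0 with a list median of -0.05, and none passed or had an unadjusted p under 0.05. Senp6, a protease that trims SUMO chains, lay at -0.31 ± 0.35, and Desi1, another SUMO protease, at -0.12 ± 0.10 (SD, n = 3 each). The ligases Pias2, Zfp451 and Nsmce2 lay at -0.05 ± 0.11, -0.05 ± 0.13 and 0.13 ± 0.30 (SD, n = 3 each). Probe means ran from -0.21 to 0.16 for Pias2 (3 probes) and from -0.32 to 0.23 for Zfp451 (2 probes).

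**Figure D3:**
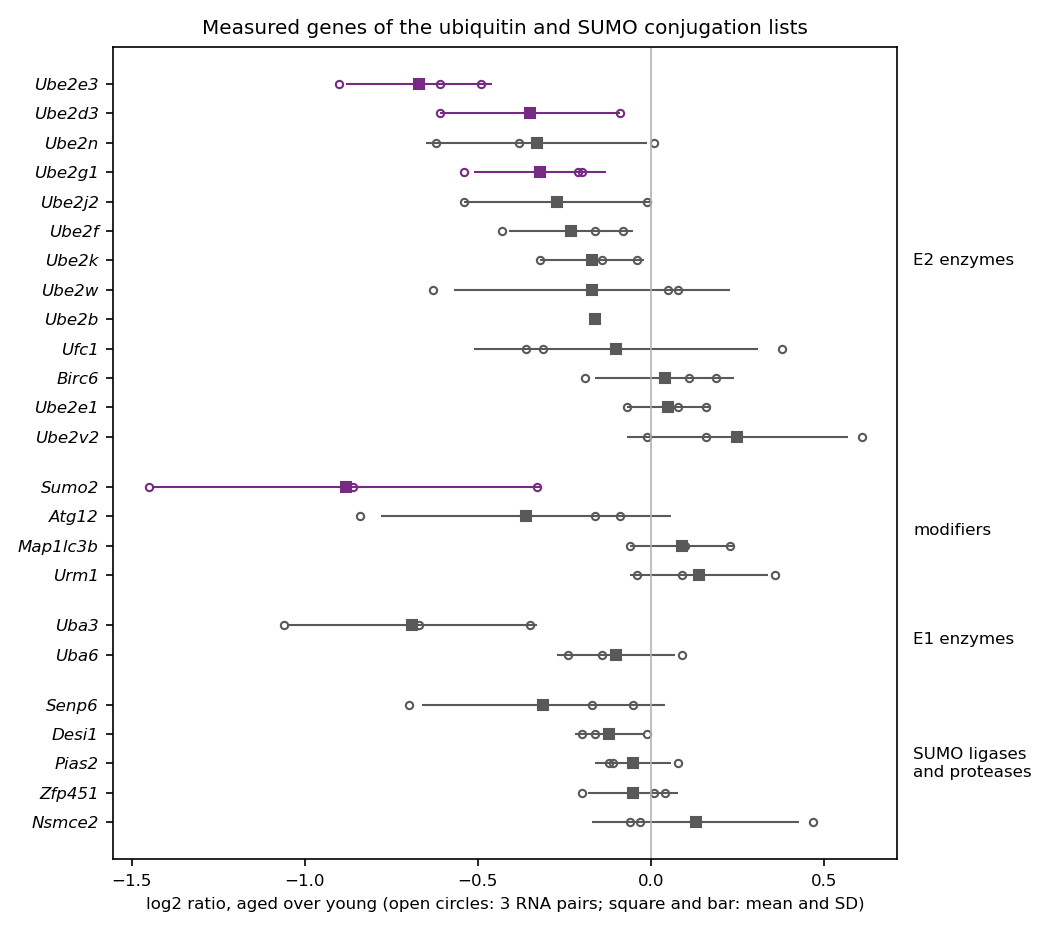
Log2 ratio of aged over young (horizontal axis) of each measured gene of the 4 lists, with open circles for the 3 RNA pairs and a square and bar for their mean and SD. The 4 described genes are in purple; Uba3, at -0.69, is the lowest of the others.

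The gene pattern most like that of each of the 4 genes was sought over the 12 arrays among 3025 named genes with a value on every array, by Pearson's r as a description, since arrays of one pair share RNA and arrays of one orientation share dyes. Closest to Ube2e3 were Efr3b (r = 0.982), Phf2 (0.970) and Runx3 (0.970), whose means were 0.22, -0.11 and -0.03, and 83 genes had r over 0.9. Ube2e3 lay at -2.02 on the array of widest spread and between -0.84 and -0.27 on the others. That array weighs heavily on these r, which were not recomputed without it. Closest to Sumo2 were Ppa1 (0.964), Atp6v1e1 (0.963) and Tsc22d4 (0.962), with means of -0.49, -0.46 and 0.02. For Ube2g1 they were C1qbp (0.932), Kcmf1 (0.932) and Mep1a (0.931), with means of -0.17, 0.25 and -0.06. For Ube2d3 they were Map1lc3b (0.884), Exoc3l4 (0.862) and Slfn9 (0.845), with means of 0.09, -0.04 and -0.53. Genes with r over 0.9 numbered 46 for Sumo2, 11 for Ube2g1 and 0 for Ube2d3. Sumo2 also had its lowest value on the array of widest spread (-3.37), and its r were not recomputed without that array.

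Among the 4 genes themselves Sumo2 correlated with Ube2e3 at r = 0.853 and with Ube2g1 at 0.814, where the Ube2g1 probes 10619, 17119 and 19618 taken singly gave 0.851, 0.852 and 0.193, and Ube2d3 with Ube2e3 at 0.230 and with Sumo2 at 0.309. Sumo2, Ube2e3 and the Ube2g1 probes 10619 and 17119 all had their lowest value on the array of widest spread (-3.37, -2.02, -3.02 and -1.37). That array weighs heavily on the r among them.

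The tissue label could not be checked by marker levels, because the arrays give ratios only. Of 19 oocyte markers 4 were measured, 3 of them below 0, with pair means of -0.66, 0.06 and -0.58 in pairs 1, 2 and 3. In them the zona protein gene Zp2 lay at -1.18 ± 1.55 and the receptor gene Kit at -0.70 ± 0.36 (SD, n = 3 each). The maternal factor gene Dppa3, named after its values were seen, lay on the other side of 0 in every pair, at 0.62 ± 0.20 (SD, n = 3). Zp2 ran widest over the pairs, at -1.69, 0.56 and -2.41, and Kit was below 0 in each. Cumulus and granulosa markers had 4 of 22 measured and pair means of 0.06, -0.15 and -0.09, with Inhbb at -0.15 ± 0.14 and Gja1 at 0.09 ± 0.39 (SD, n = 3 each). Blood and immune markers had 5 of 25 measured, 4 of them above 0, and pair means of 0.15, 0.11 and 0.18, with H2-Aa at 0.36 ± 0.12 and H2-Ab1 at 0.18 ± 0.35 (SD, n = 3 each), and Pecam1, the only stromal or endothelial marker of 17 measured, lay at -0.15 ± 0.15 (SD, n = 3). No marker passed in limma, and the part of these cells in the ratios above was not tested.

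Of the choices of processing, the reading of the dyes moved the 4 genes most. With the deposited numbers read as already aged over young, all 4 means changed sign, to 0.21 for Ube2e3, 0.66 for Sumo2, 0.06 for Ube2d3 and 0.38 for Ube2g1. These means are the dye differences above on another scale, so they are no separate result. With aged RNA in Cy5 only, Ube2g1 lay at 0.06, and with aged RNA in Cy3 only at -0.70. Under the other settings tried, all 4 means stayed below 0, although leaving out a pair or keeping limit values could not have turned them.

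**Figure D4:**
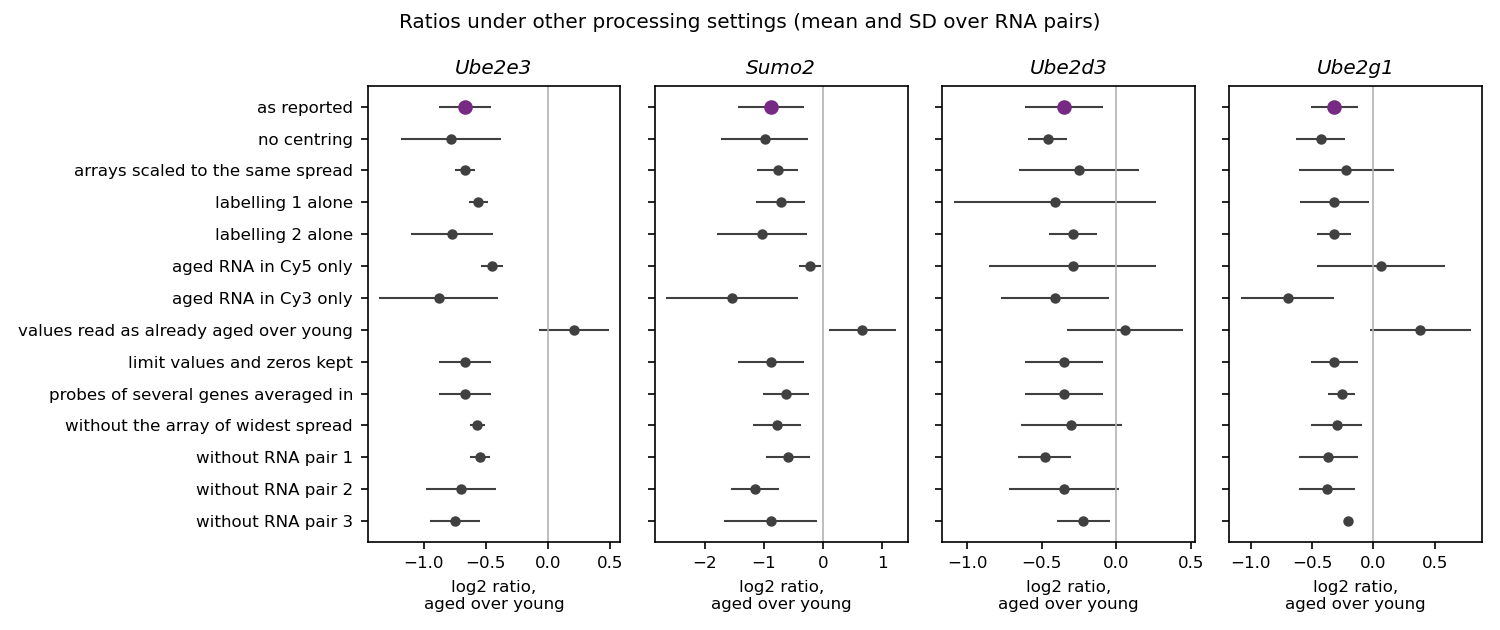
Mean log2 ratio of aged over young (horizontal axes, each with its own range) of the 4 genes under each processing setting, with bars for the SD over RNA pairs and the reported value in purple. The means lie above 0 where values are read as already aged over young and, for Ube2g1 alone, with aged RNA in Cy5 only (0.06).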

How the data were processed

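RNA of aged and young mouse oocytes was compared on 12 2-colour arrays. The authors deposited 1 value per probe and array, taken here as log10 ratios from their range of -2 to 2. For scanner software, background correction, dye normalization, centring and genome build, what was done is not given in the sources used here. Values at those limits (1215) or exactly 0 (513), 0.638% of all, were treated as missing; no value of the 9 probes was among them. Array medians ran from -0.316 to 0.0473 on the log10 scale, and array SDs from 0.391 to 1.23 on the log2 scale. The number of arrays limits the precision.

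After conversion to log2, the median of an array was subtracted from its values, and the sign was turned where Cy3 held the aged RNA. A pair value is the mean of its 2 orientation means. Probes with the same single symbol were averaged into a gene (4262 probes, 4247 of them found by gene ID among RefSeq genes), and the other probes, 6822 with several genes and 11491 with none listed, stayed rows of their own. The test of pair values against 0 used limma 3.58.1 (two-sided moderated test by lmFit and eBayes, Benjamini-Hochberg adjustment) in R 4.3.3. Dye orientation and labelling were tested with limma in 1 model of all 12 arrays with the RNA pair, over probes with a value on each. In that model the arrays of a pair count as separate values. The fits were run on simulated data that gave all rows the same spread and had no table-wide dye effect, unlike these arrays. For aged over young only the size of the estimate had to be met, not a number of changes recovered. List genes were matched by gene ID, and those found only on probes that name several genes count as not measured. The members and lists were chosen with earlier results of these data known. Named are all probes of the 4 genes, all measured genes of the 4 conjugation lists, the 3 genes of most similar pattern, and 2 markers per list by size of ratio. Alternatives covered centring, scaling, labelling, orientation, the reading of the sign, limit values, probes of several genes, a filter on technical spread, a block fit, each pair left out and, chosen after seeing the data, the widest array left out.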

Additional observations from a re-analysis of the deposited data

Results flagged for a closer look

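Probe 3507 of Sumo2 and probe 17119 of Ube2g1 differed between the dye orientations in a test of that difference, by 1.32 and 0.75 on the log2 scale with aged RNA in Cy5 less aged RNA in Cy3 (limma, adjusted p = 0.0236 and 0.0439 over 21569 probes). The test took the arrays of a pair as separate values, and without pair 1 the differences were 0.67 and 0.36. In all 3 pairs both arrays of the Sumo2 probe with aged RNA in Cy5 lay above both with it in Cy3.

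Of 27 groups of 4 arrays, 1 for each of the 9 probes in each pair, 2 held an array far from the other 3, where chance gives about 1 in 20. Probe 10619 of Ube2g1 in pair 3 had -2.31 on the array of labelling 1 with aged RNA in Cy3, and the others lay between -1.45 and -1.43. Probe 786, which names Ube2g1 and Ankfy1, had -0.56 in pair 1 on the array of widest spread, and the others lay between -0.01 and 0.07.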

How the results depend on the processing

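The means of Ube2e3, Ube2d3, Ube2g1 and Sumo2 were recomputed under 13 other settings each, and 10, 12, 10 and 10 of these, in that order, kept the sign and moved the mean by less than 1 SD. Several settings could not do otherwise. Leaving out 1 of 3 pairs that all lie below 0 can neither turn the sign nor move the mean by 1 SD. No value of these probes was at a limit or 0, and Ube2e3 and Ube2d3 share no probe with another gene. With aged RNA in Cy5 only, Ube2e3 lay at -0.45, Sumo2 at -0.22 and Ube2g1 at 0.06, and with aged RNA in Cy3 only at -0.88, -1.54 and -0.70. Read as already aged over young, Ube2e3 lay at 0.21, Ube2d3 at 0.06, Ube2g1 at 0.38 and Sumo2 at 0.66; the cause was not tested. Of all rows, limma called 13 without centring (12 higher and 1 lower in aged oocytes), 226 with all 12 arrays and the RNA pair as a random block (101 higher and 125 lower), and 0 to 42 with 1 pair left out, 42 of them without pair 1. For the dye orientation it called 4485 probes with all pairs and 0 to 5581 with 1 pair left out, with 0 without pair 2 and without pair 3; without centring 518 of 3415 calls were higher with aged RNA in Cy5, against 2230 of 4485 with it. Labelling gave 0 calls under 7 other settings (limma, 121 to 644 probes at an unadjusted p under 0.05). The signal over background behind the ratios is unknown, so dim probes could not be set apart. Within an RNA pair all 4 arrays share their RNA, so 3 values carry each mean.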
